A study of Mus musculus with 39 samples.

Results

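Histone lysine demethylases remove methyl groups from the tails of histones, and 10 of their genes are described here in single cells of the mouse testis: Kdm1a, Kdm2a, Kdm2b, Kdm3a, Kdm3b, Kdm4a, Kdm4d, Kdm5a, Kdm5b and Kdm7a. They were chosen by symbol, with earlier results of these data known, and are 10 of the 32285 genes listed in both single-cell tables. All 10 had UMIs (unique molecular identifiers, each standing for 1 captured RNA molecule) in the cells of both libraries. The study removed another demethylase gene, the X-linked Kdm6a (Utx), from male germ cells. The control library came from whole testis of Kdm6a fl/y; Cre- males, and the conditional knockout (cKO) library from Kdm6a fl/y; Ddx4-Cre+ males. Both genotypes thus carried the floxed allele, and only the cKO carried the Cre recombinase, which the promoter of the germ-cell gene Ddx4 drives in germ cells and not in the somatic cells of the testis. Lists of open chromatin regions (ATAC-seq) and of regions with the repressive mark H3K27me3 (CUT&Tag) came from cKIT+ spermatogonia of both genotypes, each assay with 2 libraries of control and 3 of cKO males. The sources used here state neither age nor the number of animals behind a single-cell library. With 1 single-cell library per genotype, no difference between the genotypes could be tested, and intervals below are 95% intervals that cover counting error only.

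As background, KDM1A (LSD1) is a flavin-dependent amine oxidase that acts on mono- and dimethylated lysine 4 of histone H3 (H3K4), while the other 9 enzymes carry a Jumonji C domain that uses iron and 2-oxoglutarate. KDM2A and KDM2B remove methyl groups from H3K36 and bind unmethylated CpG islands, KDM3A and KDM3B act on H3K9, KDM4A on H3K9 and H3K36, KDM4D on H3K9, KDM5A and KDM5B on H3K4, and KDM7A on H3K9 and H3K27. In the male germline, spermatogonia divide, spermatocytes pass through meiosis, and round spermatids reshape into elongating spermatids whose histones are replaced by protamines. KDM3A is known for its need in spermatid maturation in mice.

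The control library held 229882646 UMIs and the cKO library 172368722. Barcodes with at least 3000 UMIs were taken as cells, 11252 in the control (57.8% of its UMIs) and 8520 in the cKO (57.48%), with medians of 8410.5 and 8499 UMIs. Cells were placed in classes by marker genes and are called spermatogonia-like (184 control and 172 cKO cells), early spermatocyte-like (662 and 278), late spermatocyte-like (2257 and 1819), round spermatid-like (1451 and 1553), elongating spermatid-like (5488 and 3811), Sertoli-like (109 and 107) and Leydig-like (94 and 89). In both libraries all markers of these 7 lists were detected in their own class, and at least 9 of 10 late spermatocyte, 9 of 10 round spermatid, 10 of 12 spermatogonial and 10 of 12 early spermatocyte markers were highest there. The same lists placed the cells in classes, so these counts follow largely from the gate and are no test of the classes. The early spermatocyte-like class was drawn mainly from 2 clusters in unequal parts: cluster 13, led by genes such as Stra8, Tex15 and Hells, gave 360 control and 73 cKO cells, and cluster 15, led by Dazl, Sycp3 and Meiob, gave 264 and 172. Kdm6a itself had 304 UMIs in control cells and 75 in cKO cells, a log2 ratio of -1.60 (-1.98 to -1.23). In the early spermatocyte-like class it had 125 and 6 UMIs, and in the Sertoli-like class 12 and 20. The libraries shared 30 cell barcodes, 0.267% of control cells and 0.352% of cKO cells.

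RNA outside cells gives a level to set beside these values. Barcodes with 10 to 100 UMIs were taken as free RNA, although they may also hold debris of cells such as spermatids, which was not tested. They carried every member, from 8.25 CPM (UMIs of the gene per 1e6 UMIs of the same cells) for Kdm3b to 56.7 for Kdm5b in the control library and from 6.95 to 71.0 for the same genes in the cKO. In the elongating spermatid-like class all 10 members lay at or below the free RNA level of their library, in both libraries. In the round spermatid-like class only Kdm1a and Kdm5b lay above it in both. The early spermatocyte-like class had 9 of the 10 above it in both libraries, 7 of them at least 2-fold, and the spermatogonia-like class 8 and 6. The share of all genes above or below free RNA was not computed for any class, so these counts are not read as particular to the members. Levels at or below free RNA are not read as expression here, although the free RNA level is no floor: Kdm2a in round spermatid-like cells, for one, stood at 0.202 and 0.162 of it. The 10 elongating spermatid markers, which are very abundant, summed to 205000 CPM (control) and 226000 CPM (cKO) in their own class and to between 6230 and 21700 CPM in the other 6.

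Reference promoters were at hand for 7 members (Kdm1a, Kdm2b, Kdm3a, Kdm4a, Kdm4d, Kdm5b and Kdm7a), from RefSeq on GRCm38.p6, the assembly also called mm10, which the labels name for the chromatin data. In the window from 250 bases before to 50 after a start, the lists of all 5 ATAC libraries held a region for Kdm1a, Kdm3a, Kdm4a and Kdm4d. That is 4 of 7 members, while 32.9% of 17492 protein-coding genes had a region in all 5. That share moved with the level in the spermatogonia-like class, from 25.8% of genes at 1 to 10 CPM, the band of Kdm4a, and 59.5% at 10 to 100 CPM, that of Kdm2b, Kdm3a, Kdm4d and Kdm7a, to 75.3% at 100 CPM and above, that of Kdm1a and Kdm5b, and the members' count is to be read against these shares. Kdm2b had one in 4 libraries (both controls, cKO 2 and cKO 3) at 1 or more of its 4 listed starts. Kdm7a had one in cKO 1 and cKO 2 only, yet in the other 3 lists the nearest region ended or began 0.257 to 0.287 kb from its start. Kdm5b, one of the 2 members of the 7 with over 100 CPM in the spermatogonia-like class, had none in any library. Its nearest listed ATAC region lay 2.82 to 2.98 kb away in the 5 libraries, and none lay within the gene. Among the 1586 genes with at least 100 CPM in that class, 7.25% (115 genes) had an ATAC region in none of the 5 libraries.

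By the authors' fold enrichment, which is their own value per region, Kdm3a had the highest of these regions in 4 of the 5 libraries. It was 9.29 and 8.44 in the 2 controls and 8.44, 8.22 and 8.91 in the 3 cKO libraries, at or above the 95.2 percentile of each list. The values at Kdm4d were 6.75 and 7.73 in controls and 4.43, 6.52 and 6.68 in cKO, and those at Kdm1a 6.18 and 5.04 in controls and 4.43, 6.23 and 5.52 in cKO. Control and cKO values overlapped at Kdm1a and Kdm3a, while at Kdm4d both controls lay above the 3 cKO values. The share of all genes separated in this way, with 2 against 3 libraries, was not computed. The order at Kdm4d is therefore not read as a difference between genotypes. At Kdm4a, which was higher than Kdm3a in control 1 only, they were 9.42 and 7.55 in controls and 6.21, 7.96 and 6.51 in cKO, and overlapped. Fold enrichments are scaled within a list, and no test was made. No H3K27me3 region overlapped the start of any of the 7 members in the 5 libraries (0 of 7, against 16.1% of all genes with a region in at least 1 library), and no IgG region did. Kdm2b was the one member of the 10 with H3K27me3 regions overlapping its locus, with 2 and 1 regions in the controls and 1 in each cKO library. Its locus is the longest of the 10, at 118607 bases. The share of all genes with such a region was not computed, so this count is not read as particular to Kdm2b.

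The 250 bases before the start are shown for 4 members, 5′ to 3′ on the gene's strand: Kdm3a, Kdm1a and Kdm4d, with an ATAC region in all 5 libraries, and Kdm5b, with none. Kdm3a has 3 listed starts, of which the most upstream is shown. Capitals mark any match, on either strand, to the CCAAT box (CCAAT), the half-site of the cAMP response element (TGACG), the GC box (GGGCGG) or the E-box (CACGTG). No matches overlap in these 4 sequences.
Kdm1a, chr4:136602724-136602973, minus strand: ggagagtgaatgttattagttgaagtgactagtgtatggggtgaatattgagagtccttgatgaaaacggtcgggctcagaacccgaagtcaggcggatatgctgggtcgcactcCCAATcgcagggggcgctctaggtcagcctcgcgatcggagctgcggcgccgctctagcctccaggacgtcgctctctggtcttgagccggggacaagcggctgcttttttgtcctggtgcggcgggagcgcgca
Kdm3a, chr6:71632918-71633167, minus strand: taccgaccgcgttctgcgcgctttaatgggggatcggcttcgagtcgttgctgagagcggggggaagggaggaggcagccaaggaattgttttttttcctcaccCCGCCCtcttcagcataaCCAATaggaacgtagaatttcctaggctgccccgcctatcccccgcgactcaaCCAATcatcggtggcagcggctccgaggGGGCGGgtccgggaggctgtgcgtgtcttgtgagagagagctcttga
Kdm4d, chr9:14500483-14500732, minus strand: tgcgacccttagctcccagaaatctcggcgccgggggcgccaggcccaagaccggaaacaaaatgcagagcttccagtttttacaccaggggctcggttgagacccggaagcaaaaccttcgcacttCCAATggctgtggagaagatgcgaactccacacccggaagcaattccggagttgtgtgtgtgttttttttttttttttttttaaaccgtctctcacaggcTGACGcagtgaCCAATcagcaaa
Kdm5b, chr1:134559928-134560177, plus strand: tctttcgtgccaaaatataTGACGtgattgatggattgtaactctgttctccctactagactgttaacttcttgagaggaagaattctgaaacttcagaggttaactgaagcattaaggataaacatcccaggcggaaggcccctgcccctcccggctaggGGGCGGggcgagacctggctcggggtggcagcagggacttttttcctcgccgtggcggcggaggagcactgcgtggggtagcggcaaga
Of 21263 such windows of protein-coding genes, 35.4% hold the CCAAT box, 20.2% the cAMP half-site, 42.6% the GC box and 6.63% the E-box. The CCAAT box occurs in Kdm1a (1 match), Kdm3a (2) and Kdm4d (2) and not in the Kdm5b window. The other 2 Kdm3a windows hold none, 1 of them with 4 GC boxes and the other, which had no ATAC region, with no match to any of the motifs. The cAMP half-site occurs once each in Kdm4d and Kdm5b, the GC box at 2 places in Kdm3a and once in Kdm5b, and the E-box in none of the 4. CpG dinucleotides number 21, 20, 14 and 13 in the order shown, against a median of 10 over all windows. These matches describe the letters and not the binding of a factor.

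Along the germ cell classes most members were highest before the late spermatocytes. All 10 were at or below free RNA in the elongating spermatid-like class, a count for which no share over all genes was computed. Kdm4d, which peaked later, and Kdm4a, which was under free RNA in most germ classes, took other courses. Of the 9 members with at least 10 CPM in a germ class, as the mean of both libraries, 8 had their highest mean level in the early spermatocyte-like class, where 19.6% of 12135 genes had theirs, and Kdm4d had its highest in the late spermatocyte-like class (20.2% of genes). Of the 8, only Kdm3a and Kdm5b had the early class parted from the next class in both libraries. Spermatogonia-like cells ranked first for Kdm1a in the control and for Kdm2b and Kdm5a in the cKO, with intervals that overlapped those of the early class. Kdm4a, at 11.2 CPM in spermatogonia-like cells of the control and 4.64 in the cKO, was the member below that minimum. All 9 differed at least 4-fold between their highest and lowest germ class in both libraries, as did 83.5% of all genes, so that this count lies close to the background. The median fold over the 10 members was 10.9 in the control and 15.5 in the cKO, beside 8.15 and 9.03 over all genes (1 CPM added to each level), and the lowest of the 10 were 6.08 and 3.45. The lowest class of each member lay at or below free RNA, so the folds below depend on a level that free RNA can alter, and their intervals cover counting error only. Subtracting 10% of each class's UMIs as free RNA raised all 19 contrasts it could give, by 0.163 to 3.34 on the log2 scale.

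**Figure D1:**
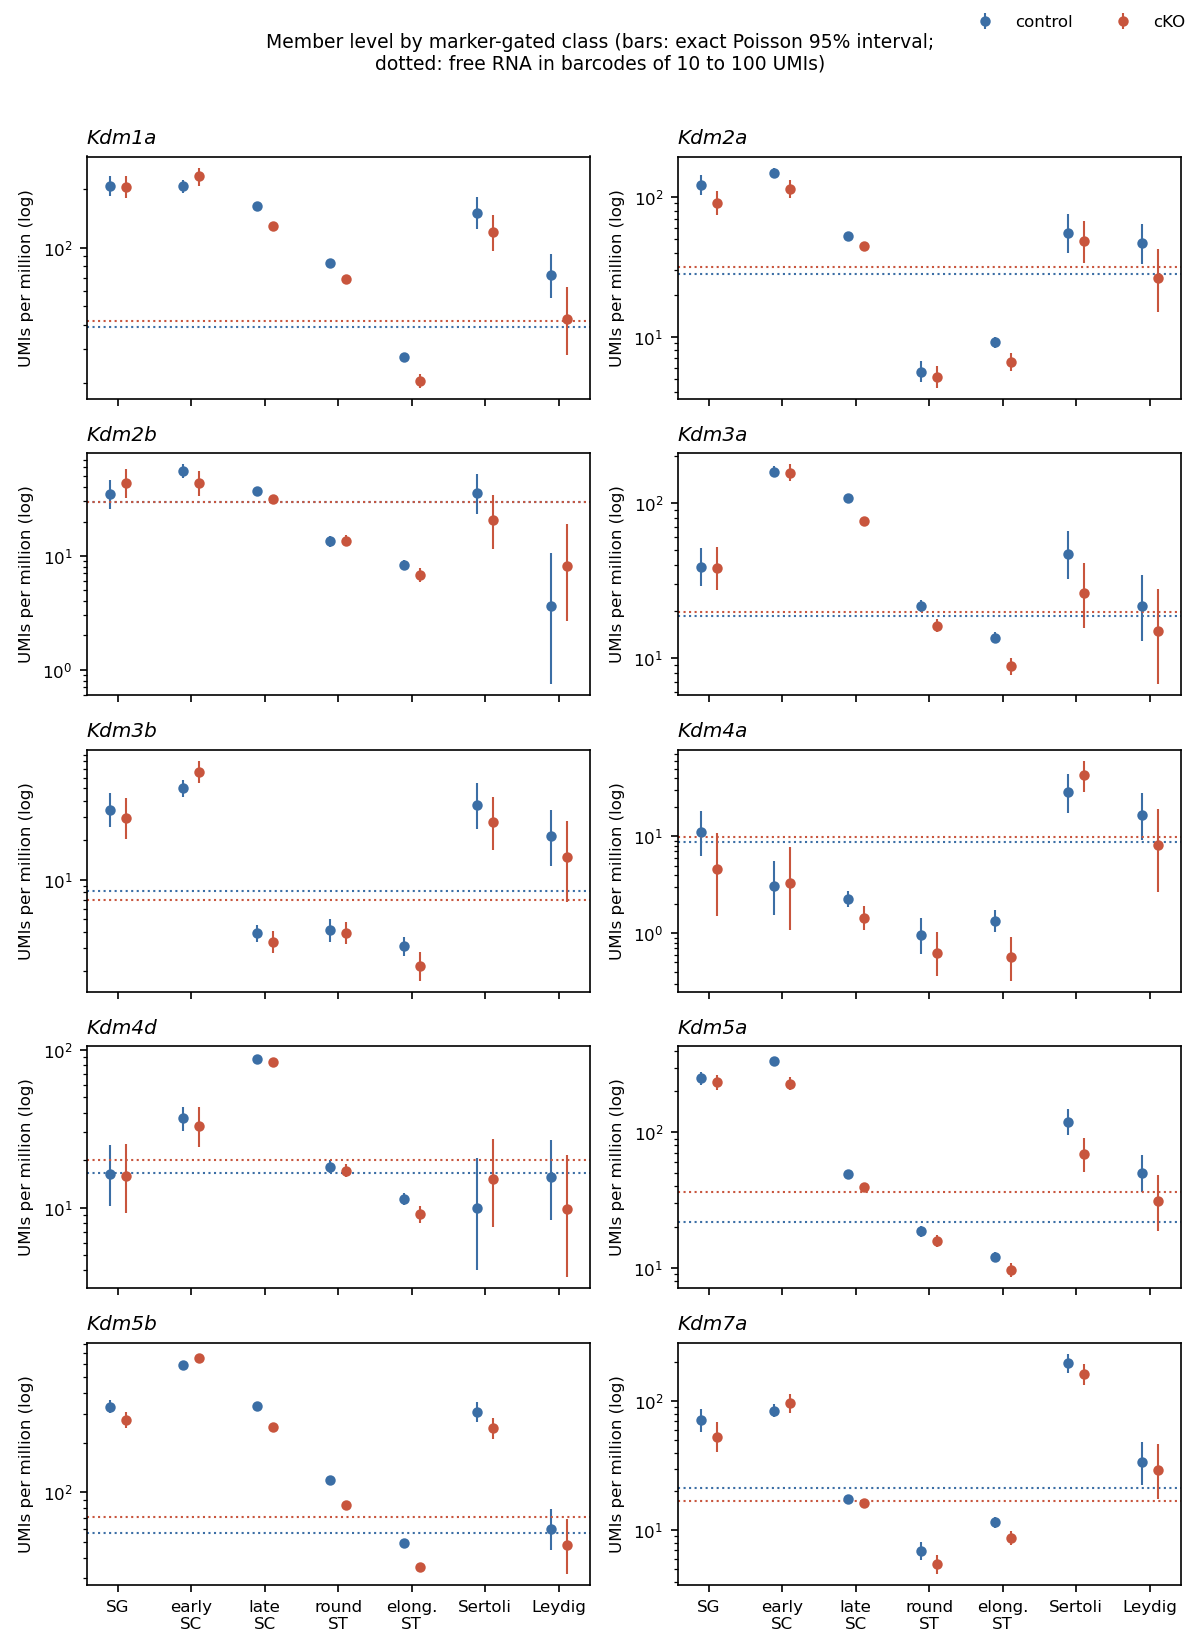
Level of each of the 10 genes in CPM (log axis) in the 7 marker-gated classes, from left to right spermatogonia (SG), early and late spermatocytes (SC), round and elongating spermatids (ST), Sertoli and Leydig, for the control (blue) and cKO (red) library. Points are summed UMIs of a class, bars are exact Poisson 95% intervals, and dotted lines are the free RNA level: in the elongating spermatid class all 10 genes lie at or below it.

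Kdm1a (chromosome 4, 136550533 to 136602787) encodes the amine oxidase of the CoREST complex. Its levels in the control library were 208 CPM in the spermatogonia-like, 207 in the early spermatocyte-like, 163 in the late spermatocyte-like, 83.3 in the round and 27.2 in the elongating spermatid-like class. The cKO values in the same order were 206, 233, 130, 69.2 and 20.6. The first 2 classes were not parted in either library, since their intervals overlapped, and each later class was lower than the one before. Early spermatocytes exceeded elongating spermatids 7.63-fold (6.95 to 8.37) in the control and 11.3-fold (9.9 to 13) in the cKO. Among the clusters named late spermatocytes, taken with all their cells, Kdm1a showed a second high point. It stood at 134 CPM in cluster 11, 128 in cluster 6 and 251 in cluster 5 of the control, and at 102, 104 and 203 in the cKO. Cluster 5 is led by Aurka, Ccna1 and Plk1, genes of the meiotic divisions. Kdm1a and Kdm4d were the only members with a higher level in cluster 5 than in clusters 7 and 11 in both libraries.

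The other H3K4 demethylases, Kdm5b and Kdm5a, were high early and differed in their course through meiosis. Kdm5b (chromosome 1, 134560178 to 134632878) had 26448 UMIs in control cells and 14563 in cKO cells. In the control it stood at 331 CPM in spermatogonia-like cells, 594 in early and 333 in late spermatocyte-like cells, and 119 and 49.3 in the spermatid-like classes, and in the cKO at 276, 652, 248, 84.1 and 35.1. The early class was the highest in both libraries, 12.1-fold (11.3 to 12.8) and 18.6-fold (17 to 20.3) above elongating spermatids. The order of spermatogonia and late spermatocytes was not resolved in either. With each cell thinned to 3000 UMIs, 72.4% of control and 81.7% of cKO early spermatocyte-like cells had a Kdm5b UMI, against 14.4% and 9.53% of elongating spermatid-like cells (80.5%, 87.4%, 28.7% and 19.0% unthinned, at median depths of 4210, 4280, 6593.5 and 6229 UMIs).

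By cluster, Kdm5b changed steeply within meiosis. In the control it was 260 CPM in cluster 13, 816 in cluster 15 and 828 in cluster 7, the late spermatocyte cluster led by Tex101, Psma8 and Sycp1, and then 537, 209 and 122 in clusters 11, 6 and 5. The cKO gave 257, 711, 634, 404, 159 and 102 in the same clusters. Kdm5a (chromosome 6, 120364099 to 120444574) stood higher in cluster 13 than in cluster 15, with 349 and 233 CPM in the control and 259 and 187 in the cKO, and its intervals there did not overlap in either library. Kdm5b, by contrast, was higher in cluster 15 than in cluster 13 in both libraries. Over classes, Kdm5a was 251, 338, 49.6, 18.7 and 12.0 CPM from spermatogonia to elongating spermatids in the control, and 233, 228, 39.8, 15.8 and 9.62 in the cKO. Its fold of early spermatocytes over elongating spermatids was 28.2 (25.4 to 31.3) and 23.8 (20.2 to 28.0), which free RNA subtraction raised by 0.66 on the log2 scale in the cKO. Early spermatocytes exceeded spermatogonia in the control only (the intervals overlapped in the cKO), and with cells of at least 5000 UMIs spermatogonia were the highest class.

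**Figure D2:**
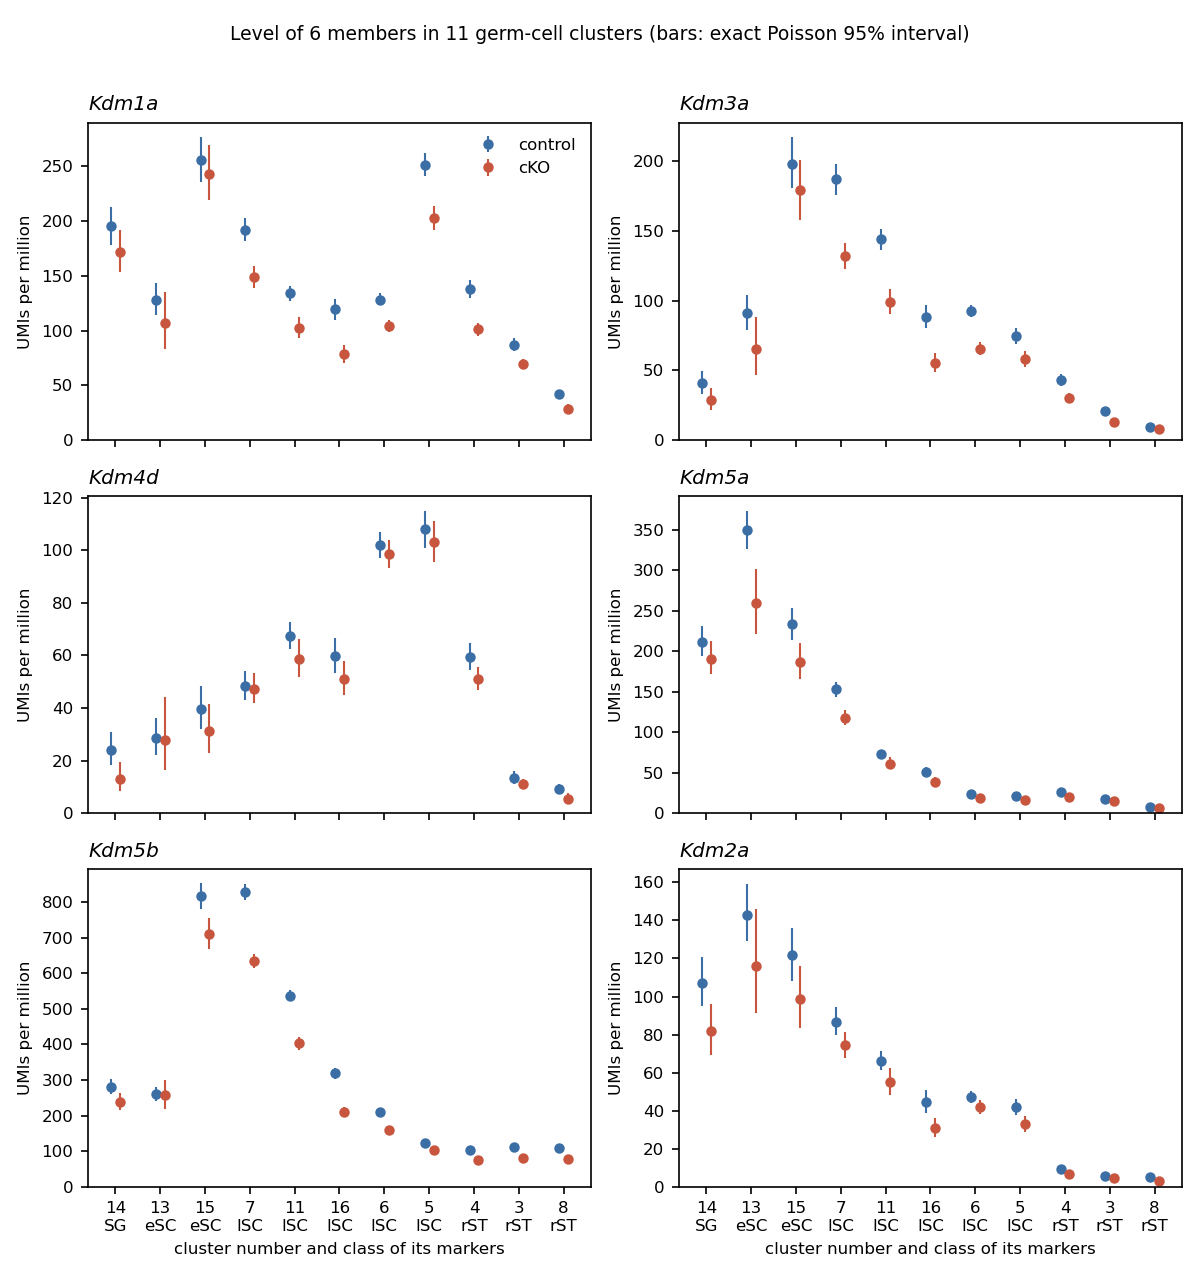
Level (CPM, linear axis from 0) of 6 of the genes in 11 germ-cell clusters, with the class of each cluster's markers below its number (SG spermatogonia, eSC and lSC early and late spermatocytes, rST round spermatids). Points are the control (blue) and cKO (red) library with exact Poisson 95% intervals: Kdm5b is highest in clusters 15 and 7, Kdm5a in cluster 13, Kdm4d in clusters 6 and 5, and Kdm1a has a second high point in cluster 5.

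The H3K36 demethylase Kdm2a (chromosome 19, 4316144 to 4398721) was confined above the free RNA level to cells before the spermatids in the germline. It stood at 122 CPM in spermatogonia-like, 149 in early and 52.9 in late spermatocyte-like cells of the control, and at 91.0, 115 and 44.4 in the cKO. The round spermatid-like class was at 5.62 and 5.15 CPM, below the free RNA level of 27.9 and 31.8, which gives folds of 26.6 (21.9 to 32.3) and 22.3 (17.7 to 28.3) for early spermatocytes over round spermatids. These folds are not fixed, since free RNA subtraction raised them by 0.96 and 1.35 on the log2 scale and reversed the order of the libraries. Spermatogonia and early spermatocytes were not parted in either library. Kdm2b (chromosome 5, 122870664 to 122989270) encodes the subunit that brings the variant Polycomb complex PRC1.1 to CpG islands. Its levels were 35.1, 55.6, 37.0, 13.4 and 8.30 CPM in the control and 43.6, 43.4, 31.5, 13.6 and 6.79 in the cKO. None of these values was more than 1.86 times the free RNA level of 29.9 (control) and 29.8 (cKO).

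The H3K9 demethylases of the KDM3 family differed in when they declined. Kdm3a (chromosome 6, 71588970 to 71632990) was 38.8 CPM in spermatogonia-like cells, 159 in early and 108 in late spermatocyte-like cells, and 21.6 and 13.5 in the spermatid-like classes of the control. The cKO gave 38.1, 157, 76.8, 16.1 and 8.87. All neighbouring classes were parted in both libraries, and late spermatocytes stood 5.84 and 3.87 times above free RNA. Kdm3b (chromosome 18, 34777008 to 34839370) was 34.3, 50.0, 3.89, 4.11 and 3.10 CPM in the control and 29.7, 66.8, 3.35, 3.92 and 2.19 in the cKO. In the control the intervals of spermatogonia and early spermatocytes overlapped, and in the cKO they did not. Its level was already below free RNA (8.25 and 6.95 CPM) in late spermatocytes, where Kdm3a was well above it. Over all cells of cluster 7, named late spermatocytes, Kdm3b was 20.2 and 16.2 CPM, and in cluster 6, named likewise, 0.934 and 0.797. Of the cells of cluster 7, 348 of 462 in the control and 387 of 506 in the cKO were late spermatocyte-like.

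Among the KDM4 genes, Kdm4d (chromosome 9, 14462548 to 14500522) was the one member with a peak in late spermatocytes. Its control levels were 16.4, 36.8, 86.9, 18.2 and 11.3 CPM from spermatogonia to elongating spermatids, and its cKO levels 15.8, 32.7, 83.1, 17.1 and 9.05. Only early and late spermatocytes exceeded free RNA (16.5 and 19.9 CPM) in both libraries. Late over elongating cells gave 7.67-fold (6.98 to 8.43) and 9.19-fold (8.08 to 10.5). Across the late clusters of the control it was 48.3 CPM in cluster 7, 67.5 in cluster 11, 59.8 in cluster 16, 102 in cluster 6 and 108 in cluster 5. The cKO gave 47.3, 58.7, 51.0, 98.6 and 103. Kdm5b and Kdm5a declined over the same clusters in this order, whose place in time was not tested. Cluster 16 was mixed, with 115 of 213 control and 109 of 209 cKO cells late spermatocyte-like and some cells spermatid-like. Thinned to 3000 UMIs, 21.1% of control and 18.8% of cKO late spermatocyte-like cells had a Kdm4d UMI, against 3.67% and 5.61% of Sertoli-like cells (70.4%, 63.2%, 5.5% and 9.35% unthinned, at median depths of 19574, 16054, 4819 and 6686 UMIs). Kdm4a (chromosome 4, 118136957 to 118180090) had few UMIs, 273 in control and 145 in cKO cells. Its highest level was in Sertoli-like cells, 28.6 CPM (17.4 to 44.1, from 20 UMIs) in the control and 42.6 (29.0 to 60.5, from 31 UMIs) in the cKO. In germ cells it reached 11.2 and 4.64 CPM in spermatogonia-like cells, from 15 and 5 UMIs, and it was under free RNA in every later class. Only the control value exceeded free RNA (8.77 and 9.93 CPM), and its interval (6.27 to 18.5) held the free RNA level.

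Kdm7a (chromosome 6, 39136620 to 39206773), whose enzyme acts on H3K9 and H3K27, was also highest in Sertoli-like cells, with 197 CPM (166 to 233) in the control and 161 (133 to 193) in the cKO. These values were 9.31 and 9.53 times free RNA, the highest such ratio of any member in a somatic class. In germ cells it stood at 71.7 and 52.9 CPM in spermatogonia-like and 84.5 and 96.2 in early spermatocyte-like cells, and at or below free RNA in the later classes. A Kdm7a UMI was found in 31.2% and 31.8% of thinned Sertoli-like cells and in 3.72% and 2.62% of elongating spermatid-like cells (49.5%, 60.7%, 8.42% and 6.04% unthinned, at median depths of 4819, 6686, 6593.5 and 6229 UMIs). Kdm5b (308 and 245 CPM), Kdm1a (151 and 120) and Kdm5a (120 and 68.8) were above free RNA in Sertoli-like cells of both libraries as well. So were Kdm3b (4.5 and 3.95 times free RNA), Kdm4a (3.26 and 4.29), Kdm3a (2.54 and 1.31) and Kdm2a (2.0 and 1.51). In Leydig-like cells only Kdm1a, Kdm3b and Kdm7a exceeded free RNA in both, with 72.0 and 42.7, 21.6 and 14.8, and 33.6 and 29.5 CPM. The cKO value of Kdm1a (27.9 to 62.5, from 26 UMIs) was only 1.02 times free RNA and not parted from it. Free RNA levels carry counting error too, and the Leydig-like intervals of Kdm3b and Kdm7a overlapped those of free RNA in both libraries. For Kdm7a in the control they were 22.3 to 48.6 and 15.2 to 28.7 CPM. Sertoli-like cells had median mitochondrial shares of 15.6% and 16.8% of UMIs. They are a mixture, since 55 control and 17 cKO cells came from cluster 12. Marker scores name that cluster elongating spermatids, and 316 control and 187 cKO cells of it were elongating spermatid-like. Its leading genes, however, include Aard and Rhox8 of the Sertoli marker list, and Defb19, Cst9 and Cst12, which also lead cluster 18. Over all cells of cluster 12, Kdm7a was 27.3 and 23.7 CPM and Kdm4a 5.03 and 3.59. In cluster 18, named Sertoli, they were 189 and 154 CPM, and 23.9 and 28.0.

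Over the 12 points of a class in a library with at least 100 cells, log2 levels of Kdm5b followed those of Kdm1a and Kdm2b with a Pearson r of 0.96 each. Those of Kdm5a followed Kdm2a with 0.95. Kdm4d stood apart, with r between -0.24 (Kdm4a) and 0.74 (Kdm3a). These points share 2 libraries and the same gate, so the values describe likeness only. For the 3 members with the widest germ-class contrast, the genes most alike among 13461 were Ap1g1 (r = 0.994), Setd1a (0.994) and Washc4 (0.992) for Kdm5a, Sel1l (0.998), Haus3 (0.995) and U2surp (0.995) for Kdm2a, and Zkscan8 (0.993), Etfa (0.992) and Lnpep (0.988) for Kdm3b. Such likeness was common, since 578, 658 and 113 genes reached 0.95 with Kdm5a, Kdm2a and Kdm3b.

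All 10 members were lower in the cKO library than in the control over all cells, by modest amounts. The log2 ratio of cKO to control ranged from -0.54 (-0.60 to -0.48) for Kdm3a, at 57.9 CPM in control and 39.9 in cKO, to -0.13 (-0.19 to -0.07) for Kdm4d, at 42.9 and 39.3. Between them lay Kdm4a (-0.49), Kdm5a (-0.45), Kdm5b (-0.44), Kdm2a (-0.42), Kdm1a (-0.30), Kdm3b (-0.26), Kdm2b (-0.24) and Kdm7a (-0.24). Every interval lay below 0, which concerns counting error between 1 library and 1 library. Of 14977 genes with at least 1 CPM, 53.1% were lower in the cKO. The median of the members, with 1 CPM added, was -0.30, beside -0.02 over all these genes, whose 5th to 95th percentiles ran from -0.44 to 0.29. Kdm3a, at -0.53 on that scale, was the only member below the range, with 2.76% of genes at or below its ratio. With 1 CPM added, no member reached a log2 ratio of 1 in either direction, as 0.134% of genes did. With the class mix of the control applied to both libraries, Kdm3b came to -0.06 and the other 9 stayed between -0.61 and -0.09.

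**Figure D3:**
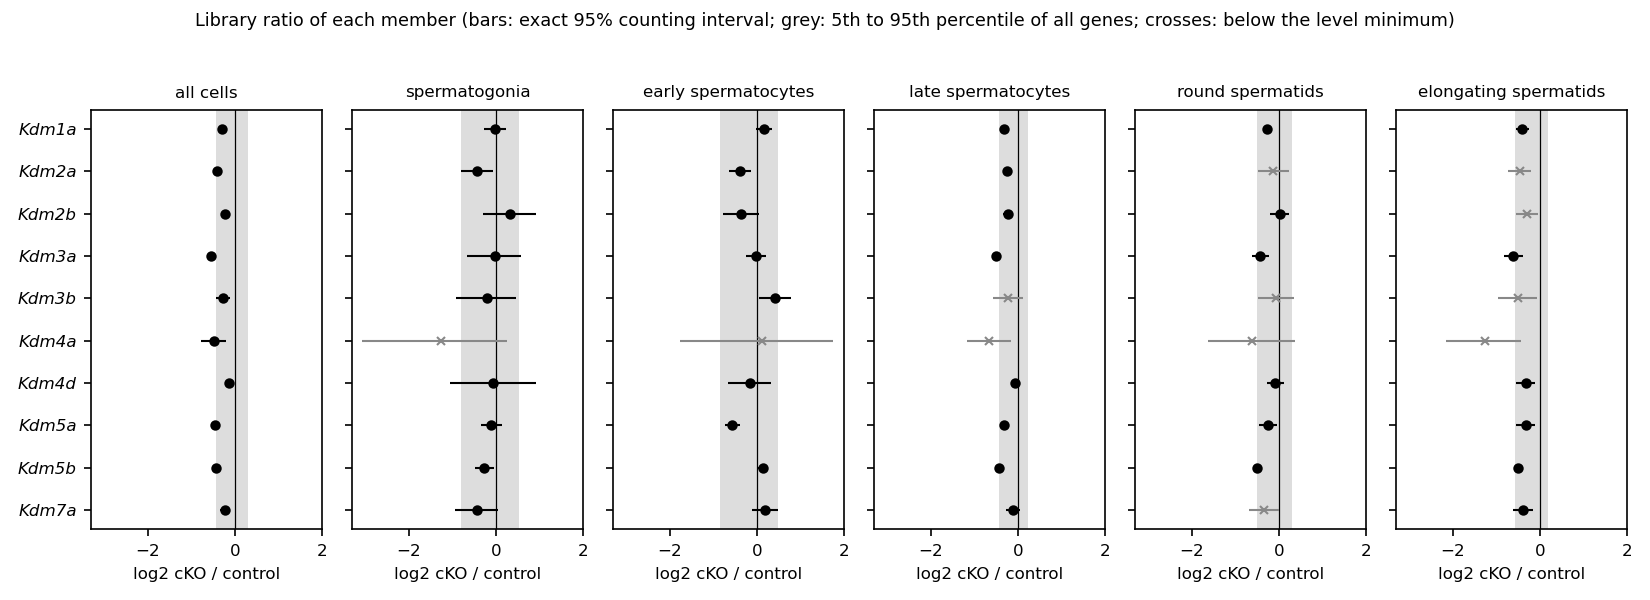
Log2 ratio of cKO over control for each of the 10 genes, over all cells and in the 5 germ-cell classes, with exact 95% intervals of counting error. Grey bands give the 5th to 95th percentile over all genes above the level minimum with 1 CPM added, which the points do not have, crosses mark genes below that minimum, and the points over all cells all lie left of 0, between -0.54 and -0.13.

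By class, no member with a mean of at least 10 CPM over both libraries passed a log2 ratio of 1 in either direction with 1 CPM added. Without it Kdm4a did so in Leydig-like cells, at -1.03 (-2.86 to 0.52) from 14 and 5 UMIs. Below that minimum Kdm4a was also at -1.27 (-3.09 to 0.26) in spermatogonia-like cells, or -1.11 with 1 CPM added, from 15 and 5 UMIs. In elongating spermatid-like cells, where it was far under free RNA, it was at -1.25 (-2.15 to -0.43), or -0.58 with 1 CPM added, from 59 and 16 UMIs. Kdm2b in Leydig-like cells went the other way, at 1.19 (-1.17 to 3.88), or 1.00 with 1 CPM added, from 3 and 5 UMIs. The tested members numbered 9 in the spermatogonia-like class (2.97% of genes past it), 9 in the early spermatocyte-like (2.9%), 8 in the late spermatocyte-like (0.131%), 6 in the round spermatid-like (0.166%), 6 in the elongating spermatid-like (0.211%), 10 in the Sertoli-like (6.24%) and 9 in the Leydig-like class (9.45%). The late spermatocyte-like class had all 8 tested members lower in the cKO, with a median of -0.28 against -0.01 over all genes. Lower was common in that class among genes with loci as long as those of the members. It held for 60.7% of genes with loci of 20 to 50 kb, 77.9% at 50 to 100 kb and 79.6% above 100 kb. There Kdm3a was at -0.50 (-0.57 to -0.43), Kdm5b at -0.43 (-0.47 to -0.39) and Kdm1a at -0.33 (-0.38 to -0.27), while the interval of Kdm4d held 0, at -0.06 (-0.13 to 0.01). In the early class 4 of 9 were higher and 5 lower in the cKO, with a median of -0.02 against -0.07 over all genes. In the spermatogonia-like class 8 of 9 were lower, with a median of -0.11 against -0.09 over all genes, and only the intervals of Kdm2a and Kdm5b lay below 0. The round spermatid-like class had 5 of 6 lower, with a median of -0.25 against 0.02. The elongating spermatid-like class, where all 10 members were at or below free RNA, had 6 of 6 lower, with -0.37 against -0.09. No share of all genes lower in the cKO was computed over a whole class, the somatic classes included.

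The early spermatocyte-like ratios were also taken within its clusters, whose mix differed between the libraries. Kdm5a was at -0.57 (-0.74 to -0.39) over the class, but at -0.09 (-0.37 to 0.18) within cluster 13 and at -0.41 (-0.67 to -0.16) within cluster 15. Kdm5b was at 0.14 (0.02 to 0.25) over the class, at 0.25 (-0.07 to 0.55) within cluster 13 and at -0.11 (-0.24 to 0.01) within cluster 15. Kdm3b, at 0.42 (0.05 to 0.78) over the class, was at 0.55 (-0.63 to 1.59) within cluster 13 and at 0.08 (-0.35 to 0.49) within cluster 15. Kdm2a, at -0.38 (-0.63 to -0.13) over the class, was at -0.03 (-0.49 to 0.40) and -0.28 (-0.62 to 0.06). Kdm3a went from -0.02 over the class to -0.50 (-1.20 to 0.14) within cluster 13 and -0.12 (-0.38 to 0.14) within cluster 15. Within the clusters only the interval of Kdm5a in cluster 15 lay off 0. UMIs were fewer there and the ratios themselves also changed, and the part of each was not tested.

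The somatic classes gave few UMIs. In Sertoli-like cells, where Kdm6a stood at 17.1 CPM in control and 27.5 in cKO, 8 of 10 members were lower, with a median of -0.33 against -0.05 over all genes. In Leydig-like cells all 9 tested members were lower, with a median of -0.61 against -0.10, although only 3 of the 10 members exceeded free RNA there in both libraries. The interval lay below 0 for Kdm5a and Kdm5b among the Sertoli-like and for Kdm1a among the Leydig-like cells, and held 0 for the others. Cluster 18, named Sertoli by its markers, supplied 54 of the Sertoli-like cells in the control library and 90 in the cKO. Cluster 12, named elongating spermatids by its scores but led by genes that include Sertoli markers, supplied 55 and 17. The part of this unequal mix in the Sertoli-like ratios was not tested. Locus length moved with the ratio over all genes. The median was 0.08 for 2119 genes with loci up to 5 kb, 0.03 for 5 to 20 kb, -0.06 for 20 to 50 kb, -0.15 for 50 to 100 kb and -0.13 above 100 kb, and within the late spermatocyte-like class it went from 0.10 to -0.21 over the same bands. Members have loci of 37975 bases (Kdm4d) to 118607 bases (Kdm2b), 6 of them between 50 and 100 kb, a band in which 72.8% of genes were lower in the cKO. The part of locus length in the members' ratios was not tested.

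**Figure D4:**
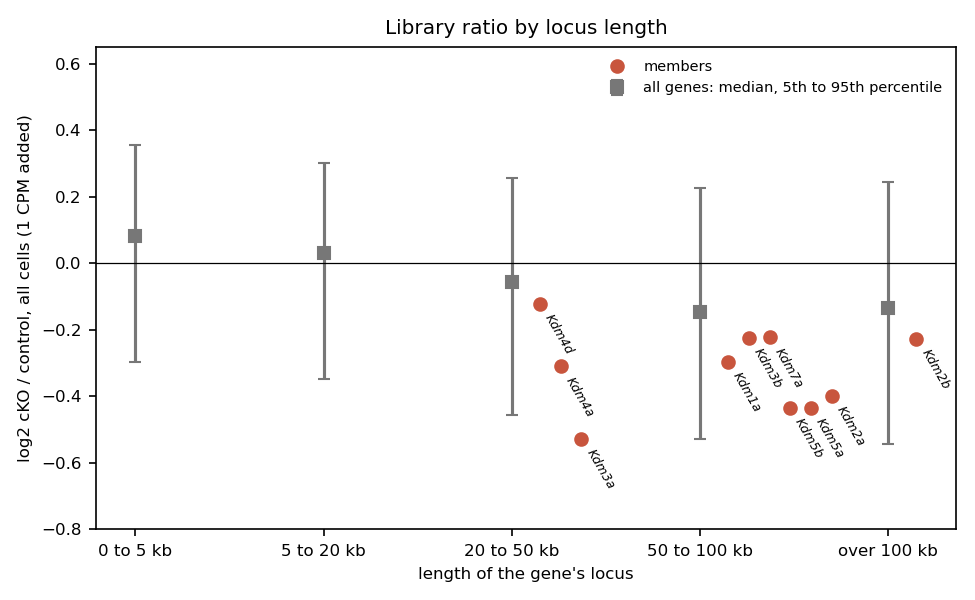
Log2 ratio of cKO over control over all cells (1 CPM added) against the length of the gene's locus in 5 bands. Grey squares with bars are the median and the 5th to 95th percentile over all genes of a band, and red points are the 10 members, each in its band: the medians go from 0.08 in the shortest band to -0.15 at 50 to 100 kb, and all members lie below the median of their own band.

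The remaining demethylase genes were examined in the same way. Of 16 symbols named, 15 were in the tables, and the other, Kdm3c, is another name of Jmjd1c, which was among them. Of these genes 10 reached a mean of 10 CPM in a germ class, all 10 with at least a 4-fold range in both libraries (83.5% of all genes). Folds of these and the partner genes have 1 CPM added to each level. The highest class of the 10 demethylase genes was the spermatogonia-like for 5 (Kdm1b, Kdm6b, Uty, Riox1 and Riox2), the early spermatocyte-like for 4 (Jmjd1c, Kdm4c, Kdm6a and Phf8) and the late spermatocyte-like for Phf2. Over all 12135 genes these classes were the highest for 31.0%, 19.6% and 20.2%. Kdm1b, the close relative of Kdm1a, was highest in spermatogonia-like cells, with 23.1 and 29.7 CPM against 0.544 and 0.504 in late spermatocyte-like cells, or 15.6- and 20.4-fold with 1 CPM added. Kdm6a, at -1.60 without and -0.90 with 1 CPM added, was the only gene of this list to reach a log2 library ratio of 1 in either direction, and did so only without it. After it, the lowest of the 10, without 1 CPM added, were Phf2 at -0.88 (-0.95 to -0.81), with 39.5 and 21.5 CPM, and Jmjd1c, the third KDM3 family gene, at -0.72 (-0.79 to -0.65), with 40.2 and 24.4 CPM.

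Genes of 3 complexes that contain members were also examined, and none of those named here reached a log2 library ratio of 1 in either direction. Among CoREST genes, the partners of KDM1A, a 4-fold range in both libraries was found for Rcor1 (4.75 and 7.95, highest in early spermatocytes), Hdac1 (8.25 and 9.81, also early), Rcor3 and Phf21a (highest in late spermatocytes) and Hdac2, Hmg20b and Rcor2 (highest in spermatogonia). Of 7 tested PRC1.1 genes, the partners of KDM2B, 6 did so, including Rnf2, Skp1a, Rybp, Bcorl1, Pcgf1 and Ring1, while Usp7 had 3.70 and 4.16. Among SIN3 genes, the partners of KDM5A, Sin3a, Sin3b, Arid4a, Arid4b and Brms1 had such a range, and Suds3 and Morf4l1 did not. Over all genes the share with such a range was 83.5%.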

How the data were processed

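Per the submitters' processing notes, the single-cell reads were processed with Cell Ranger and Seurat 4.1.0 on mm10, and the deposited matrices hold UMI counts for every barcode, with no cells selected. Per the same notes, ATAC-seq used cutadapt, Bowtie2 and MACS2, and CUT&Tag cutadapt, Bowtie2, SAMtools, deepTools and SEACR. The deposited ATAC lists give, per region, the authors' fold enrichment and −log10 p and q values, and the deposited CUT&Tag lists the authors' total and maximum signal. Regions were listed per library.

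Cells were barcodes with at least 3000 UMIs. Each was placed in a class by marker scores rescaled by class, with a minimum of 0.35 and a margin of 0.1 to the next class. Clusters came from scanpy 1.11.5 and leidenalg 0.10.2, and Scrublet marked 591 control and 512 cKO cells as doublets, which were kept. Counts were summed per class and library and given as CPM with exact Poisson intervals. Library ratios carry exact conditional binomial intervals, and shares of cells exact binomial intervals. Library ratios were counted for genes with at least 1 CPM over all cells or 10 CPM in a class, and class contrasts for genes with at least 10 CPM in a germ class, each as the mean of both libraries and with 1 CPM added. With 1 library per genotype no test was made, and the replicate numbers of the chromatin lists enter none. The gating was tried on simulated cells whose markers were raised only in their own class, and the library ratio on simulated counts with counting error only. Both settings are simpler than the data, where classes share marker RNA, so they are no test of the classes or of differences between libraries. The 10 demethylase genes and the gene lists were chosen with earlier results of these data known. All 10 are named, with the 3 genes most alike to each of the 3 members of widest contrast, and genes of the partner lists with a 4-fold range or a log2 ratio of 1. Some genes of the partner lists are not reported here. Promoters matched 7 members (Kdm2a, Kdm3b and Kdm5a did not match). Bulk RNA-seq of testis and of a spermatogonial cell line was not analysed here, since the tables used pair none of its transcripts with genes. Python 3.11.15, numpy 2.4.6, scipy 1.17.1, pandas 2.3.3 and matplotlib 3.10.9 were used.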

Additional observations from a re-analysis of the deposited data

How the results depend on the processing

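The counts of members held under the 22 alternatives tried for them. No member passed a log2 library ratio of 1 in either direction under any. The number with a 4-fold range stayed at 9, or was 10 with cells of at least 5000 UMIs and with 10% free RNA subtracted. An ATAC region at a start in all 5 libraries was found for 4 members, or for 5 with 1000 bases on either side, which adds Kdm7a. An H3K27me3 region at a start was found for 0 members. All 80 library ratios computed under alternatives stayed below 0, and 9 moved beyond their interval, 5 of them with the control's class mix. Of 159 germ-class contrasts 54 moved, including all 19 computed with free RNA subtracted, by 0.163 to 3.34 on the log2 scale, and the cause of the other shifts was not tested. The highest class changed for Kdm5a with at least 5000 UMIs and for Kdm1a with a mean over cells, both to spermatogonia. The early spermatocyte-like ratios within clusters 13 and 15 were chosen after seeing the data, 5 of 19 moved beyond their interval, and Kdm4a had 0 UMIs in cKO cells of cluster 13 and so gave none there. No paired analysis was possible because each genotype has 1 single-cell library and the chromatin lists enter no test. Depth limits Kdm4a most, with 273 and 145 UMIs in all.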
